A study of Mus musculus with 42 samples.

Results

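The SLC16 family was followed through the day in mouse kidney, with 6 of its genes described in every pool: Slc16a1, Slc16a10, Slc16a4, Slc16a7, Slc16a9 and Slc16a12. They are 6 of the 56691 genes in the tables and were listed by name. Slc16a1 and Slc16a10 were selected on their FPKM over the day in these same data, so their daily course is described without a test. The other 4 were listed as family members, and all 6 passed the filter for testing, a mean of 1 FPKM or more, as did 13344 genes in all (FPKM is a read level scaled to transcript length and library size). Kidneys came from male wild-type C57BL/6 mice that from an age of 6 weeks were fed for 14 weeks either a fat-rich diet that held 3% of the oxidised fatty acid EpSA (epoxystearic acid) or a standard chow, with light for 12 h and dark for 12 h. Sampling was at ZT 1, 5, 9, 13, 17, 21 and 25, where ZT (zeitgeber time) counts the hours since the lights came on, and each diet and time had 3 mice, which makes 42. The deposited values are 14 means, 1 per diet and time, called pools here. Mice on fat alone were not analysed here, and the fat and the EpSA of the diet cannot be told apart.

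SLC16 proteins, also called monocarboxylate transporters or MCTs, are membrane carriers with a shared fold and differing cargo. Slc16a1 (MCT1) and Slc16a7 (MCT2) move lactate, pyruvate and ketone bodies together with a proton, and they reach the cell surface with the help of a partner subunit, basigin or embigin. Slc16a10 (TAT1) carries the aromatic amino acids tyrosine, phenylalanine and tryptophan without a coupled ion. Slc16a9 (MCT9) is linked to carnitine in human genetics, Slc16a12 (MCT12) carries creatine, and the cargo of Slc16a4 (MCT5) is poorly known. In the kidney the proximal tubule takes back filtered lactate and amino acids through sodium-coupled carriers on its urine side, and carriers of this kind release them on the blood side. Circadian clock genes such as Arntl, which encodes the activator BMAL1, bind DNA at E-boxes, while Dbp and its relatives bind D-boxes.

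Promoter sequence is shown for Slc16a1 and Slc16a10, which were picked for their time pattern, and for Slc16a12, the only member of the 5 with a window that held more than 1 clock motif. The lines give the 250 bases before the start in RefSeq, on the GRCm38.p6 build and 5′ to 3′ on the gene's strand, with motif matches in capitals. Windows were matched for Slc16a1, Slc16a10, Slc16a4, Slc16a9 and Slc16a12.
Slc16a1 (chr3:104638414-104638663, plus strand): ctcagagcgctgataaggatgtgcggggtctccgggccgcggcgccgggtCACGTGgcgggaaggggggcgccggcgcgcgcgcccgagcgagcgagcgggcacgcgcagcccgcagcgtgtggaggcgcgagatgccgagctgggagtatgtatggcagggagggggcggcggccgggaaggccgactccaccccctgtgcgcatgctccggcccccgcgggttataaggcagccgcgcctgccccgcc
Slc16a10 (chr10:40142255-40142504, minus strand): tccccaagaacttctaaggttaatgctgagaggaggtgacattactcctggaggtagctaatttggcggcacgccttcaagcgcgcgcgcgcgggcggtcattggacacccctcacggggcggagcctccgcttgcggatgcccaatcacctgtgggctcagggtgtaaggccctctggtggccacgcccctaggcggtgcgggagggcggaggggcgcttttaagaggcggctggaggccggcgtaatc
Slc16a12 (chr19:34747329-34747578, minus strand): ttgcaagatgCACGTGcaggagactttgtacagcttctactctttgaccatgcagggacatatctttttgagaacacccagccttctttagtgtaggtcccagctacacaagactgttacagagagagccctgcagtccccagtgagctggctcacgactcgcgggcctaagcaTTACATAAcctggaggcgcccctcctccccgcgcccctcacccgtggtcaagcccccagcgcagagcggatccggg
The capitals in Slc16a1 are a single E-box, CACGTG, starting 200 bases before the start. In Slc16a12 they are an E-box 240 bases before the start and, at 76 bases before it, TTACATAA, the reverse strand of the D-box TTATGTAA. Both strands were searched in 300-base windows that run on to 50 bases after the start. Of all 32851 windows, 7.15% held the E-box CACGTG, 4.68% CACGTT, 1.06% a D-box (TTATGTAA or TTACGTAA), 16.3% the nuclear receptor half-site AGGTCA and 0.475% the glucocorticoid response element. None of these letters occurred in the windows of Slc16a10, Slc16a4 or Slc16a9. A match describes the letters of the window, and the data hold no measurement of binding.

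Slc16a1 lies on chr3:104638668-104658462 (plus strand, GENCODE annotation of GRCm38) and had the widest daily swing of the 6 genes. In EpSA kidneys it had 20.9, 13.8, 7.55, 8.31, 17.0, 23.4 and 21.2 FPKM at ZT 1, 5, 9, 13, 17, 21 and 25. In chow kidneys it had 22.0, 19.65, 9.84, 6.78, 9.36, 18.5 and 21.1 FPKM at the same times. Both diets thus showed a trough around the end of the light period and a crest around its start, with the turning points earlier under EpSA. The highest pool was 3.11 times the lowest in EpSA and 3.24 times in chow. The lowest value fell at ZT 9 in EpSA and at ZT 13 in chow, and the highest at ZT 21 in EpSA and at ZT 1 in chow. In EpSA the values at ZT 9 and ZT 13 lay close, at 7.55 and 8.31 FPKM.

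At matched times the diets differed most for Slc16a1 on the falling and rising limbs. The ratio of EpSA to chow was 0.702 at ZT 5 and 0.767 at ZT 9, then 1.23 at ZT 13, 1.82 at ZT 17 and 1.27 at ZT 21. At ZT 1 and ZT 25, which are the same clock hour a day apart, it was 0.950 and 1.00. The diet with the higher value therefore changed between ZT 9 and ZT 13, while the values near lights on were close. The ratios come from 1 mean per diet and time, so no spread between mice stands behind them.

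A 24 h cosine fitted by limma to log2(FPKM + 1) summarised this course. For Slc16a1 the amplitude (the fitted peak minus the fitted mean, log2) was 0.80 ± 0.05 (SE) in EpSA and 0.79 ± 0.06 in chow, and the curve took up 97.9% of the variance over times in EpSA and 97.6% in chow. Its fitted peak was at ZT 22.3 ± 0.27 h in EpSA and at ZT 1.21 ± 0.31 h in chow, which is 2.92 ± 0.41 h earlier in EpSA (−2.92 h). Fitted size was thus near equal in the diets and the fitted peak was earlier in EpSA, a description that carries no test. By amplitude Slc16a1 ranked 27 of 13344 genes in each diet, a rank that its selection on the time pattern favours. With any 1 time left out in both diets the shift stayed between −3.29 and −2.52 h. In the authors' deposited table its phase was 23.0 h in EpSA and 1.10 h in chow, and its amplitude over baseline was 0.521 in EpSA and 0.543 in chow. The deposited periods behind these phases were unequal, at 24.4 h in EpSA and 26.0 h in chow.

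**Figure D1:**
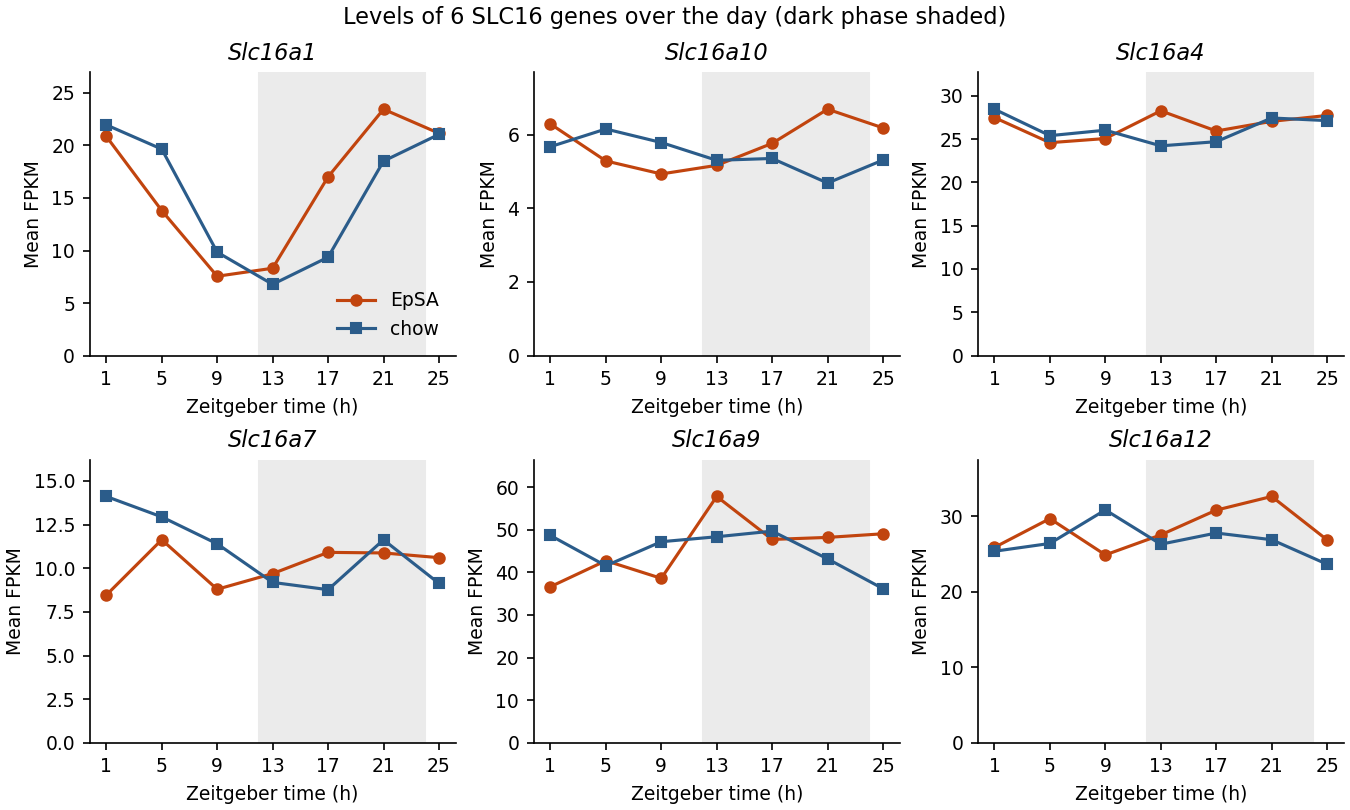
Level in FPKM (vertical axes) against zeitgeber hour (horizontal axes) for the 6 SLC16 genes, 1 point per pool, each a mean over 3 mice, so the points carry no error bars. The Slc16a1 curve is deep in both diets and sits earlier in EpSA, with its lowest point at ZT 9 in EpSA and ZT 13 in chow, while Slc16a4 stays between 24.2 and 28.4 FPKM in all 14 pools.

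Slc16a10 lies on chr10:40033532-40142258 (minus strand) and was the lowest of the 6 in level. In EpSA kidneys it had 6.29, 5.28, 4.93, 5.16, 5.76, 6.69 and 6.18 FPKM at ZT 1, 5, 9, 13, 17, 21 and 25. In chow kidneys it had 5.67, 6.15, 5.78, 5.30, 5.35, 4.68 and 5.31 FPKM at these times. The crest lay at ZT 21 in EpSA, the time at which chow had its lowest value, and the lowest EpSA value lay at ZT 9. EpSA was 1.43 times chow at ZT 21, 0.859 times at ZT 5 and 0.853 times at ZT 9. These are small swings, with the highest pool 1.36 times the lowest in EpSA and 1.31 times in chow. The chow pool of ZT 21 had the highest summed FPKM of the 14 pools, 435621, and the fewest genes above 0, 27796. Its part in the Slc16a10 values was not tested.

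The cosine of Slc16a10 had an amplitude of 0.18 ± 0.04 in EpSA and 0.12 ± 0.05 in chow (log2 ± SE). It took up 97.3% of the variance over times in EpSA and 69.2% in chow, so the chow wave was the less well described. With pool medians set equal the chow amplitude was 0.08, and without ZT 21 it was 0.09. Fitted peaks lay at ZT 21.7 ± 0.78 h in EpSA and ZT 6.93 ± 1.36 h in chow. Their distance was −9.18 ± 1.57 h when counted the short way round the day, and it ran between −9.72 and −8.46 h with 1 time left out. With so long a distance an earlier and a later peak cannot be told apart. By amplitude Slc16a10, also picked for its time pattern, ranked 1733 of 13344 in EpSA and 4616 in chow. In the authors' deposited table its phase was 22.0 h in EpSA and 6.58 h in chow, with amplitude over baseline of 0.141 in EpSA and 0.0871 in chow. The deposited periods were 23.0 h in EpSA and 26.3 h in chow.

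Slc16a1 and Slc16a10 ran together in one diet and apart in the other. Across the 7 EpSA pools their log2 levels had a Pearson correlation of 0.946, across the 7 chow pools 0.053, and across all 14 pools 0.545. The pools are shared by both genes, so these values describe the course and carry no test.

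The other 4 genes had no daily course that passed a test, and Slc16a4 was the steadiest. Slc16a4 (chr3:107291230-107312115, plus strand) had 27.5, 24.6, 25.1, 28.3, 25.9, 27.0 and 27.7 FPKM in EpSA kidneys at ZT 1 to 25. In chow kidneys it had 28.4, 25.4, 26.0, 24.2, 24.7, 27.4 and 27.1 FPKM. The diets overlapped throughout, and the widest gap was at ZT 13, where EpSA was 1.17 times chow. Its fitted amplitude was 0.05 ± 0.05 in EpSA and 0.09 ± 0.04 in chow (log2 ± SE).

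Slc16a7 (chr10:125219270-125389465, minus strand), the second lactate and pyruvate carrier of the set, was at 8.46, 11.6, 8.80, 9.69, 10.9, 10.9 and 10.6 FPKM in EpSA kidneys. In chow kidneys it was at 14.1, 12.9, 11.4, 9.19, 8.77, 11.6 and 9.13 FPKM. The largest gap between the diets was at ZT 1, where EpSA was 0.5997 times chow, and at ZT 25 the order was the other way, at 1.16 times. Its amplitude was 0.06 ± 0.09 in EpSA and 0.21 ± 0.10 in chow.

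Slc16a9 (chr10:70245100-70285968, plus strand) had the highest level of the 6. It was at 36.6, 42.7, 38.6, 57.8, 47.7, 48.2 and 49.0 FPKM in EpSA kidneys, against 48.6, 41.5, 47.2, 48.3, 49.7, 43.2 and 36.2 FPKM in chow kidneys. The ratio of EpSA to chow was 0.753 at ZT 1 and 1.36 at ZT 25, so here too the order at the 2 visits to the same hour was reversed. Its amplitude was 0.18 ± 0.09 in EpSA and 0.13 ± 0.07 in chow.

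Slc16a12 (chr19:34668403-34747289, minus strand), the creatine carrier, was at 25.9, 29.7, 24.9, 27.5, 30.8, 32.6 and 26.9 FPKM in EpSA kidneys. In chow kidneys it was at 25.4, 26.4, 30.8, 26.3, 27.8, 26.9 and 23.6 FPKM. EpSA was the higher at every time but ZT 9, where it was 0.807 times chow. Its amplitude was 0.12 ± 0.07 in EpSA and 0.10 ± 0.05 in chow.

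For these 4 genes rhythm was tested by limma with Benjamini-Hochberg adjustment over all 13344 genes at 0.05. In EpSA 0 of 4 passed, with adjusted p between 0.674 and 0.925, and 0.045% of all genes did. In chow 0 of 4 passed, with adjusted p between 0.613 and 0.651, and 0.0974% of all genes did. The difference of rhythm between the diets was passed by 0 of 4 and by 0% of all genes. At an unadjusted p under 0.05, 0 of 4 passed in EpSA, in chow and for the difference, where all genes gave 8.63%, 10.2% and 4.38% in that order. In the authors' deposited table the combined p-value from meta2d was under 0.05 for 1 of the 4, Slc16a9 in chow, at 0.0214 with a q-value of 0.734 and a period of 20.1 h. A p that misses the threshold does not show that a gene is without rhythm, and 7 means per diet leave 4 residual degrees of freedom.

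The mean level over the day was compared between the diets for all 6 genes, a measure on which they were not chosen. Slc16a1 averaged 16.02 ± 6.35 FPKM in EpSA kidneys and 15.3 ± 6.38 in chow kidneys (SD over 7 times). Slc16a10 averaged 5.76 ± 0.66 and Slc16a4 26.6 ± 1.41 in EpSA, against 5.46 ± 0.46 for Slc16a10 and 26.2 ± 1.54 for Slc16a4 in chow. Slc16a7 averaged 10.1 ± 1.18 FPKM in EpSA and 11.03 ± 2.07 in chow. For each of these 4 genes the difference between the diet means was smaller than the spread over the day. Slc16a9 averaged 45.8 ± 7.18 FPKM in EpSA and 44.95 ± 4.91 in chow, and Slc16a12 28.3 ± 2.80 in EpSA and 26.7 ± 2.22 in chow. In both diets the order of the means, highest first, was Slc16a9, Slc16a12, Slc16a4, Slc16a1, Slc16a7 and Slc16a10. The distance between the neighbours Slc16a12 and Slc16a4 was within the SD of Slc16a12 in both diets, and in EpSA it was larger than the SD of Slc16a4, and the distance from Slc16a1 to Slc16a7 was within the SD of Slc16a1.

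In the limma test of diet with time as a factor, 0 of 6 genes passed, and 0.247% of all genes did (0.172% higher and 0.0749% lower in EpSA). At an unadjusted p under 0.05 it was also 0 of 6, against 19.2% of all genes. The log2 difference was 0.08 ± 0.06 (SE) for Slc16a12 with adjusted p = 0.536, 0.07 ± 0.14 for Slc16a1 with 0.808, and −0.10 ± 0.11 for Slc16a7 with 0.642. It was 0.06 ± 0.07 for Slc16a10 with 0.692, 0.02 ± 0.04 for Slc16a4 with 0.826, and 0.02 ± 0.09 for Slc16a9 with 0.930. Slc16a12 was higher in EpSA at 6 of 7 times, Slc16a1, Slc16a10 and Slc16a9 at 4, and Slc16a4 and Slc16a7 at 3. A two-sided exact permutation test that flips the sign of the 7 time differences gave p = 0.297 for Slc16a12 and between 0.484 and 0.875 for the other 5, where the smallest p possible is 0.0156. Leaving out 1 time turned the sign of the difference for Slc16a1, Slc16a10, Slc16a4 and Slc16a9. For Slc16a1 it was −0.05 without ZT 17, and for Slc16a10 −0.0012 without ZT 21. For Slc16a7 it was −0.0034 without ZT 1. In whole kidney, fewer cells of a type and less RNA per cell cannot be told apart.

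**Figure D2:**
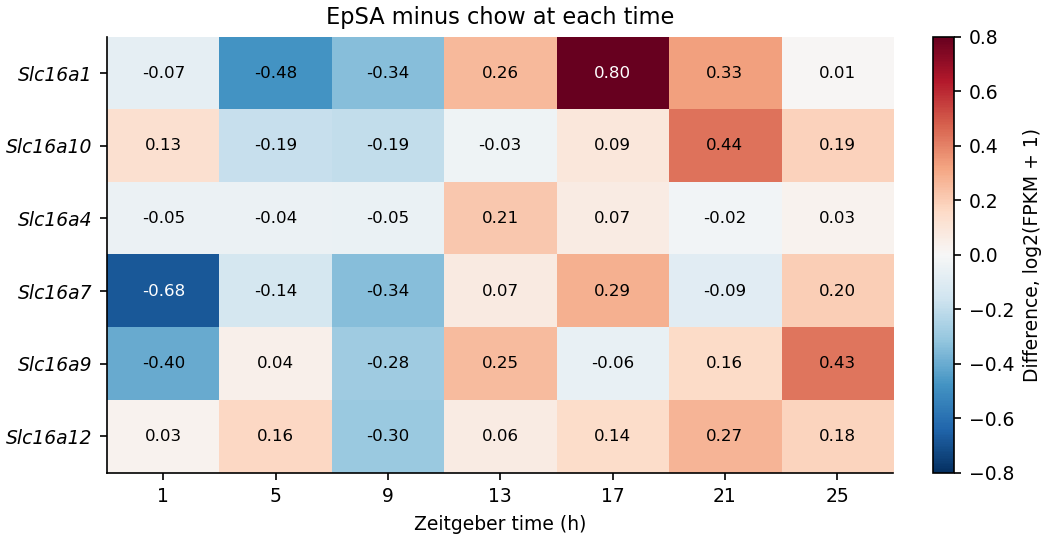
Difference of EpSA minus chow in log2(FPKM + 1), as colour and as the printed value, for each gene (rows) at each zeitgeber hour (columns), with 1 pool per diet behind each cell and red for higher in EpSA. Slc16a1 is at −0.48 at ZT 5 and 0.80 at ZT 17, and Slc16a7 and Slc16a9 are at −0.68 and −0.40 at ZT 1 and above 0 at ZT 25.

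ZT 1 and ZT 25 fall at the same hour, and their distance shows how far separate pools of a diet lie apart. For Slc16a1 this distance was 0.02 in EpSA and 0.06 in chow on the log2 scale, against a range over the day of 1.52 in EpSA and 1.56 in chow. For Slc16a10 it was 0.02 in EpSA and 0.08 in chow, with ranges of 0.37 in EpSA and 0.33 in chow. Both genes were picked for their time pattern, so nothing is read from a range wider than this distance. For Slc16a7 the distance was 0.29 in EpSA and 0.58 in chow, and for Slc16a9 0.41 in EpSA and 0.42 in chow, with daily ranges of 0.42 and 0.63 for Slc16a7 and of 0.64 and 0.45 for Slc16a9 in EpSA and chow. In chow the same-hour distance was 91.7% of the daily range for Slc16a7 and 93.5% for Slc16a9. Over all genes tested the median distance was 0.12 in both diets.

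Both Slc16a7 and Slc16a9 were higher at ZT 25 than at ZT 1 in EpSA and lower at ZT 25 in chow. Slc16a1, Slc16a4 and Slc16a12 had the same signs with values within 0.1 of 0. Outside the 6 genes the signs were also the same for Slc16a3, which was under 1 FPKM, and for Slc16a5, Slc16a6 and Slc16a14. For the last 3 the ZT 25 minus ZT 1 difference in log2 was 0.70, 0.86 and 1.08 in EpSA and −0.33, −0.41 and −0.23 in chow. With 1 pool at each time these are values without a test. Cell type markers also differed between these pools. The summed level of 3 thick ascending limb markers was 712 at ZT 1 and 958 FPKM at ZT 25 in EpSA, against 1259 at ZT 1 and 901 at ZT 25 in chow. Umod carried the EpSA difference, at 556 FPKM at ZT 1 and 806 at ZT 25, while Slc12a1 was at 149.6 and 146 and Cldn16 at 6.37 and 5.95 at those times. In chow all 3 were lower at ZT 25 than at ZT 1. The summed level of 4 macrophage markers was 61.2 and 65.6 FPKM in EpSA at ZT 1 and ZT 25, and 166 and 85.9 in chow. The 4 fat markers summed to 82.1 FPKM at ZT 1 and 41.8 at ZT 25 in EpSA, and to 53.7 at ZT 1 and 81.1 at ZT 25 in chow. The part of these markers in the SLC16 values was not tested.

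**Figure D3:**
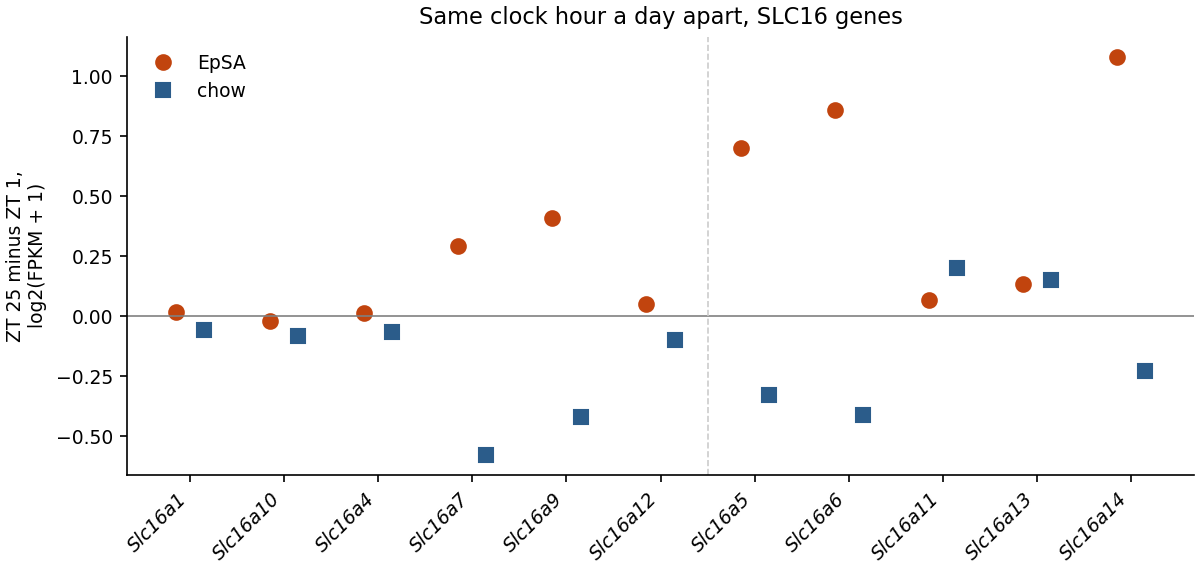
ZT 25 minus ZT 1 in log2(FPKM + 1) (vertical axis) for SLC16 genes, with the 6 described left of the dashed line, EpSA and chow, 1 pool at each time. Slc16a1, Slc16a10 and Slc16a4 lie within 0.1 of 0 in both diets, while Slc16a7 and Slc16a9 lie above 0 in EpSA and below 0 in chow.

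Other marker lists were examined in the same pools. The 6 proximal tubule markers, among them Slc34a1 and Lrp2, summed to between 1323 and 1590 FPKM in EpSA and between 1335 and 1594 in chow. None was at 0. Slc34a1 made up most of each sum, at 771 to 988 FPKM, so the sums say little of the other markers. At ZT 21 Slc7a13 was at 242 FPKM in EpSA and 379 in chow, and Slc5a12 at 38.2 in EpSA and 16.4 in chow. The EpSA pool of ZT 9 held 103 FPKM of 4 adrenal markers, while the other 13 pools held between 1.06 and 1.63, and Hsd3b1, Cyp21a1 and Cyp11b1 were at 0 in some of them. The EpSA pool of ZT 9 also held the lowest EpSA value of Slc16a1, and without it the lowest is at ZT 13, as in chow. The part of the adrenal markers in the SLC16 values was not tested. With ZT 9 left out in both diets the shift of Slc16a1 was −2.89 h and that of Slc16a10 −9.52 h. Without ZT 9 the log2 diet difference was 0.14 for both Slc16a12 and Slc16a1 and 0.10 for Slc16a10, and 0 of 6 genes passed. Annotated genes that overlap the 6 reached at most 0.55 FPKM in any pool.

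The course of Slc16a1 was set beside that of the clock genes, of which 17 of 18 listed were tested. In the clock list 2 of 17 genes passed the rhythm test in EpSA, against 0.045% of all genes tested, and 7 of 17 in chow, against 0.0974%. For the difference of rhythm 0 passed by limma, as for all genes, and 8 had an unadjusted p under 0.05, against 4.38% of all genes. Fitted peaks were earlier in EpSA for 14 of the 17, and the share over all genes is not given here. Those not earlier were Per2 (0.02 h), Bhlhe40 (3.49 ± 1.55 h) and Rora. The median shift was −1.74 h, with a range from −3.32 h for Nfil3 to 10.5 h for Rora. The shift of −2.92 h of Slc16a1 lies inside that range and between those of Clock (−3.26 h) and Nfil3 on one side and Tef (−2.78 h), Dbp (−2.16 h) and Arntl (−1.86 h) on the other. These shifts come from the same pools, and their distance from that of Slc16a1 was not tested.

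**Figure D4:**
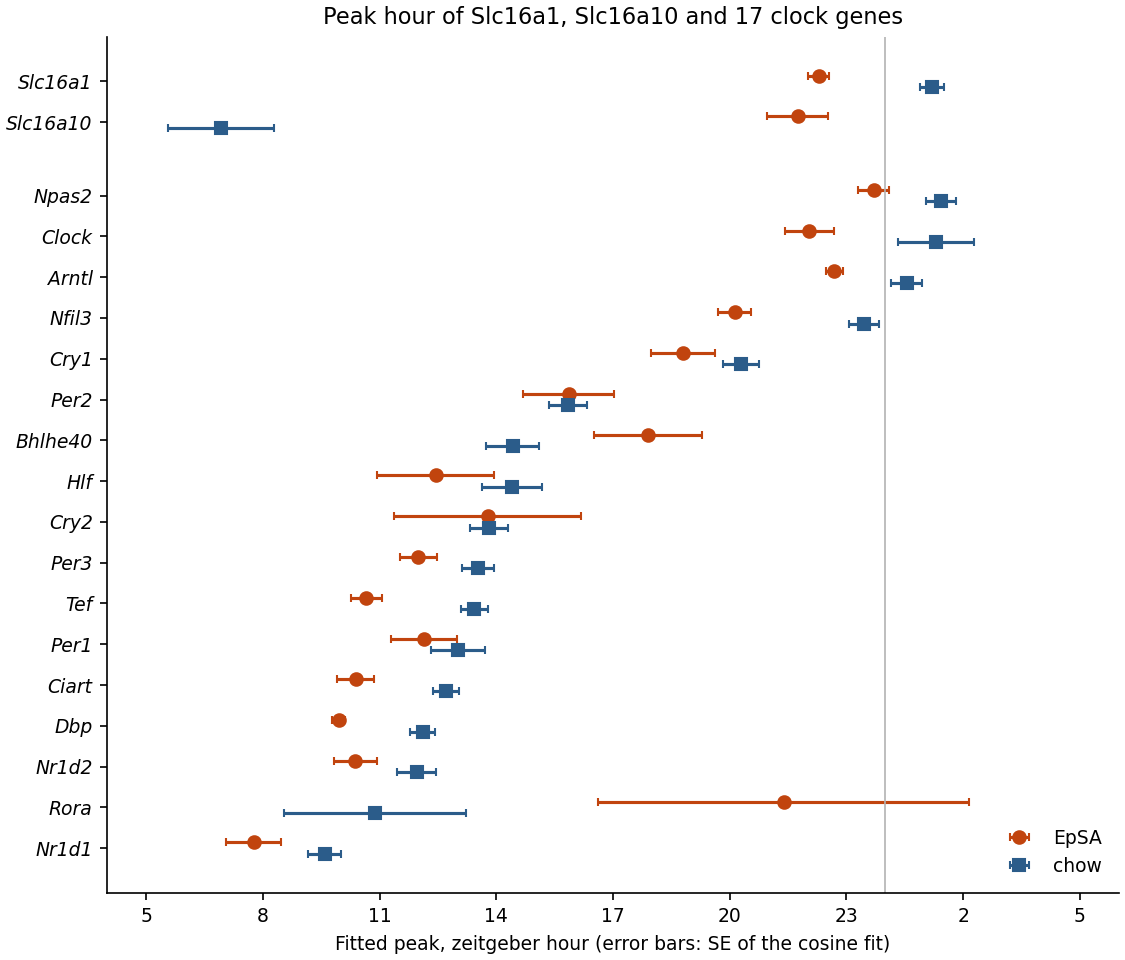
Fitted peak in zeitgeber hours (horizontal axis) of Slc16a1, Slc16a10 and 17 clock genes, with bars for the SE of the cosine fit and a grey line at the end of the day. Slc16a1 peaks at 22.3 h in EpSA and 1.21 h in chow beside Arntl, Npas2 and Clock, and Slc16a10 has its EpSA peak near theirs and its chow peak at 6.93 h.

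Likeness to Slc16a1 was measured by Pearson correlation of log2 levels over the 14 pools among 11559 named genes. The closest were Leo1 (0.967), Arntl (0.962), Avpr1a (0.952), a vasopressin receptor, Psmd11 (0.947), a proteasome subunit, and Chic1 (0.946). Arntl had 2.81, 1.21, 0.34, 0.40, 1.45, 3.25 and 3.19 FPKM in EpSA kidneys and 4.68, 2.71, 0.49, 0.35, 0.91, 2.84 and 3.04 in chow kidneys at ZT 1 to 25. In both diets its low and high pools fell at or next to those of Slc16a1, at a much lower level. The lowest correlations included the clock outputs Ciart (−0.972), Tef (−0.969) and Dbp (−0.956), which peak in the other part of the day. For Slc16a10 the closest were Elmod2 (0.887), Ugt2b34 (0.883), Ppil4 (0.877), Gatad2b (0.876) and Akap10 (0.875). All genes share the pools and the daily cycle, so a high correlation describes a shared time course only.

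**Figure D5:**
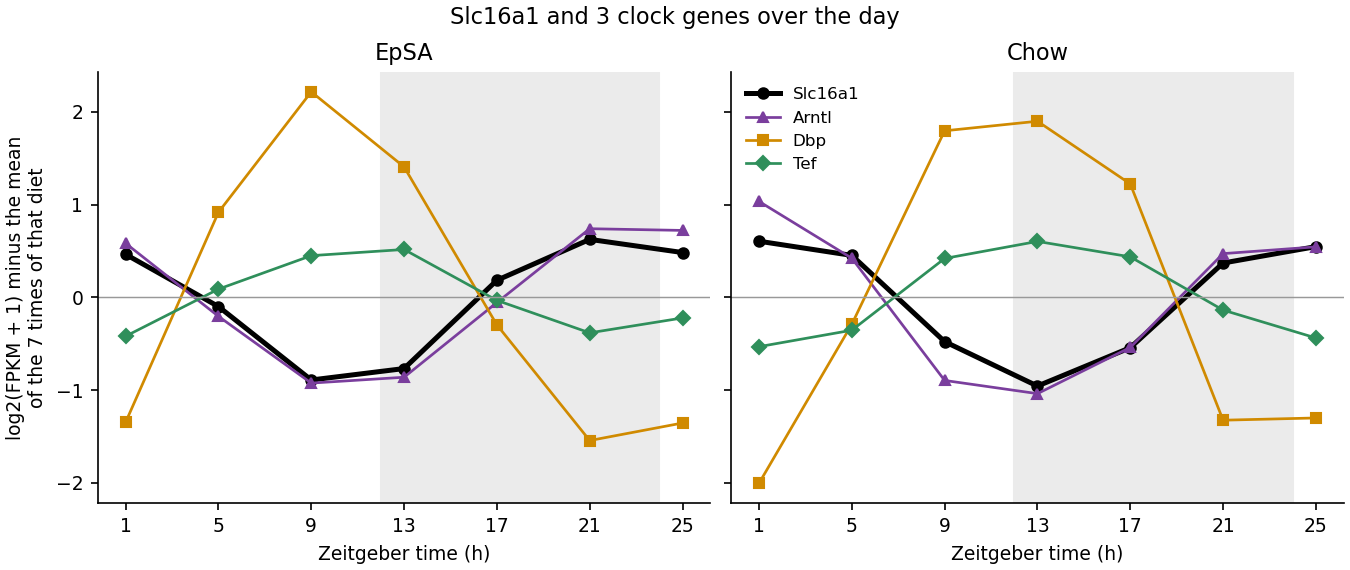
Slc16a1 beside clock genes, as log2(FPKM + 1) minus the mean over times (vertical axes) against zeitgeber hour (horizontal axes), for EpSA and chow. The Slc16a1 line follows Arntl in both diets and mirrors Dbp and Tef, and the trough of Slc16a1 is at ZT 9 in EpSA and ZT 13 in chow.

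Of the 8 other SLC16 genes, 6 were tested, since Slc16a3 (MCT4, a lactate exporter) and Slc16a8 stayed under 1 FPKM on average. In the limma diet, rhythm and difference tests 0 of 6 passed, and at an unadjusted p under 0.05 it was 1 of 6 for rhythm in EpSA and 1 in chow, Slc16a13 in each, and 0 for diet and for the difference. Over all genes tested these shares were 8.63% for rhythm in EpSA, 10.2% in chow, 19.2% for diet and 4.38% for the difference. Slc16a13 came closest to the course of Slc16a1, with a correlation of 0.840 over 14 pools. It peaked at ZT 22.5 ± 1.19 h in EpSA and ZT 0.27 ± 0.96 h in chow with an amplitude of 0.27 in EpSA and 0.26 in chow, and its limma adjusted p for rhythm was 0.554 in EpSA and 0.301 in chow. Slc16a14 varied widely without passing a test, from 6.58 to 21.9 FPKM in EpSA and from 6.94 to 16.4 in chow.

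The partner subunits did not pass a limma test either (0 of 3, also at an unadjusted p under 0.05). Over all genes tested the unadjusted shares were 19.2% for diet, 8.63% for rhythm in EpSA, 10.2% in chow and 4.38% for the difference. With 3 genes, 0 is near these shares. Basigin (Bsg), which brings Slc16a1 to the membrane, was at 236 ± 8.94 FPKM in EpSA and 248.7 ± 13.2 in chow, with a log2 difference of −0.07 ± 0.05 and limma adjusted p = 0.470. Its amplitude was 0.05 in both diets, so the wave of Slc16a1 had no counterpart of like size in Bsg. Embigin (Emb) was far lower, at 3.64 ± 0.32 FPKM in EpSA and 3.73 ± 0.48 in chow.

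Of the 16 genes of lactate, pyruvate and ketone handling, 0 passed in the limma diet, rhythm or difference tests. At an unadjusted p under 0.05 it was 7 for diet, 3 for rhythm in EpSA, 3 in chow and 2 for the difference, against 19.2%, 8.63%, 10.2% and 4.38% of all genes tested in that order. Lowest in p was Ldhd, D-lactate dehydrogenase, at 137 ± 16.4 FPKM in EpSA and 172 ± 21.1 in chow, a log2 difference of −0.33 ± 0.06 with limma adjusted p = 0.058. Slc5a12, a sodium-coupled lactate carrier of the proximal tubule, was at 31.3 ± 4.03 FPKM in EpSA and 24.2 ± 6.05 in chow (log2 difference 0.39 ± 0.15, limma adjusted p = 0.214). Pdk4, the kinase that shuts off pyruvate oxidation, had a fitted amplitude of 0.74 with a peak at ZT 23.0 in EpSA and of 0.28 with a peak at ZT 5.98 in chow, and the limma adjusted p for rhythm was 0.543 in EpSA and 0.756 in chow. The median log2 diet difference of the list was −0.07, and that of all genes tested was −0.01.

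Of the 18 genes of aromatic amino acid transport and breakdown, 15 were tested, and 0 passed in any of the limma tests. At an unadjusted p under 0.05 it was 6 for diet, 3 for rhythm in EpSA, 3 in chow and 0 for the difference, against 19.2%, 8.63%, 10.2% and 4.38% of all genes tested in that order. Slc7a8 (LAT2), an exchanger of neutral amino acids on the blood side of the proximal tubule, was at 26.6 ± 3.32 FPKM in EpSA and 22.2 ± 2.43 in chow (log2 difference 0.25 ± 0.08, limma adjusted p = 0.142). Its heavy chain Slc3a2 was at 38.1 ± 4.49 FPKM in EpSA and 33.2 ± 2.66 in chow (0.19 ± 0.06, limma adjusted p = 0.172). Like Slc16a10, both had their fitted peak late in the night in EpSA, at ZT 20.3 ± 1.82 h and ZT 20.4 ± 1.58 h, and in the light period in chow, at ZT 4.45 ± 1.76 h and ZT 5.36 ± 2.57 h. Neither rhythm passed the test in either diet. Other transporters of the list did not share this course. Slc7a9 had its fitted peak at ZT 11.8 ± 1.12 h in EpSA and ZT 12.1 ± 1.35 h in chow. Slc6a19 had it at ZT 8.77 ± 1.12 h in EpSA and ZT 10.9 ± 1.05 h in chow. Fah, the last enzyme of tyrosine breakdown, was at 160 ± 12.0 FPKM in EpSA and 189 ± 7.12 in chow (−0.24 ± 0.05, limma adjusted p = 0.075). Ddc, which makes dopamine from L-DOPA, had amplitudes of 0.42 in EpSA and 0.48 in chow with limma adjusted p of 0.357 in EpSA and 0.101 in chow. The median diet difference of this list was −0.04.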

How the data were processed

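Libraries of 42 kidneys were read from both ends at 150 bases, as the labels' protocols state, and the authors deposited 2 tables of 56691 genes with 7 columns of expression each. Neither aligner nor build is given in the sources used here. No unit is named in the headers, and the deposited values are taken as FPKM. Their thousandths are only 0, 3 or 7, as in means of 3 values, read here as a mean by the authors over 3 mice in every column. Deposited p-values and q-values of meta2d, phases and periods in hours, amplitude as a score on the scale of expression, and the ratio of amplitude to baseline are per the file headers. FPKM summed to between 400590 and 435621 per pool, with 27796 to 29783 genes above 0.

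Testing covered genes averaging 1 FPKM or more, as log2(FPKM + 1), which understates fold changes of low genes, with limma 3.58.1 (trend and robust) in R 4.3.3. The planned tests had allowed for values per library, and the tables hold means, so each mean is 1 sample. Models were diet plus time as a factor (6 residual degrees of freedom), a 24 h cosine and sine per diet (4), and their interaction with diet (8), adjusted by Benjamini-Hochberg at 0.05 over 13344 genes. The members and lists were chosen with earlier results of these data known. Named are the 6 members, listed genes that passed a test or had up to 4 of the lowest p per list, and the 5 genes most like Slc16a1 and Slc16a10, with Ciart, Tef and Dbp as clock genes. A few genes under this rule are not reported here. On simulated data over 13344 genes the diet model recovered 40 of 50 changes of 0.5 and 49 of 50 of 1 (log2), with 8 false calls. The cosine recovered 44 of 50 genes of amplitude 1 in EpSA, with 5 false calls, and 43 in chow, with 2. The 4 genes tested for rhythm had fitted amplitudes of 0.05 to 0.21. Amplitudes that small and diet differences under 0.5 were not simulated, so recovery at the size of the SLC16 values is unknown. Alternatives covered pseudocount, filter, scaling, rhythm statistic, time factor, variance prior and leaving out each time. Other steps ran in Python 3.11.15 (matplotlib 3.10.9, scipy 1.17.1, pandas 2.3.3, numpy 2.4.6).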

Additional observations from a re-analysis of the deposited data

How the results depend on the processing

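Of the 6 SLC16 genes, 0 passed the diet test, and of the 4 tested for rhythm 0 passed, under every alternative run. The counts over all genes moved. Diet calls (33) became 5 with a pseudocount of 5, 0 with no filter, 55 with a mean of at least 5, 17 with pool medians set equal, 70 with quantile normalization, 156 without the time factor and 3 without the trend and robust prior, an alternative chosen after seeing the data. Rhythm calls in EpSA (6) became 0 with no filter and 2 by the deposited meta2d q-value. Rhythm calls in chow (13) became 8 with a pseudocount of 0.1, 5 with a pseudocount of 5, 0 with no filter, 7 with a mean of at least 5, 6 with medians equal, 8 with quantile normalization and 0 by the deposited meta2d q-value. Without ZT 1, 5, 9, 13, 17, 21 and 25 in that order, diet calls were 2, 0, 8, 1, 7, 3 and 0, EpSA rhythm calls 2, 5, 0, 2, 3, 1 and 2, and chow rhythm calls 0, 3, 0, 0, 0, 0 and 0. The cause was not tested.

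With pseudocounts of 0.1 and 5 the amplitude of Slc16a1 was 0.85 and 0.62 in EpSA and 0.84 and 0.61 in chow, and that of Slc16a10 in EpSA was 0.12 with 5, since a larger pseudocount compresses the scale. The amplitude of Slc16a10 in chow (0.12) was 0.0758 with a pseudocount of 5, 0.0779 with medians equal and 0.0768 with quantile normalization. With 1 time left out the amplitude of Slc16a10 in chow ran from 0.0859 to 0.1753, and the peak of Slc16a1 from 21.98 to 22.68 h in EpSA and from 0.87 to 1.53 h in chow. The log2 diet difference then ran from −0.0503 (without ZT 17) to 0.1627 for Slc16a1, from −0.0012 (without ZT 21) to 0.1037 for Slc16a10, from −0.1635 (without ZT 17) to −0.0034 (without ZT 1) for Slc16a7, from −0.0112 (without ZT 13) to 0.0333 for Slc16a4 and from −0.0486 (without ZT 25) to 0.0896 for Slc16a9, which was also −0.0192 without ZT 13 and −0.003 without ZT 21. No paired analysis was possible because the columns are means that carry no replicate numbers, beyond the matching of the diets by time in the diet model and the sign flips. Depth is unknown, and p-values measure the spread between times, not between mice.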

Other observations

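Among the 7 tested genes of creatine and carnitine handling, 0 passed in the diet, rhythm or difference tests by limma, and at an unadjusted p under 0.05 it was 2 for diet, 2 for rhythm in EpSA, 2 in chow and 0 for the difference, against 19.2%, 8.63%, 10.2% and 4.38% of all genes tested in that order. Gatm, which makes the creatine precursor guanidinoacetate in the proximal tubule, was at 204 ± 32.3 FPKM in EpSA and 180 ± 39.2 in chow (SD over 7 times). Its fitted peak was at ZT 22.1 ± 0.72 h in EpSA and ZT 0.91 ± 1.55 h in chow, with amplitudes of 0.29 in EpSA and 0.32 in chow and limma adjusted p for rhythm of 0.421 in EpSA and 0.519 in chow. Ckb, a creatine kinase, was at 24.7 ± 4.01 FPKM in EpSA and 34.3 ± 12.3 in chow, with a log2 difference of −0.40 ± 0.13 and limma adjusted p = 0.171.

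Among the 8 tested genes of thyroid hormone handling, 0 passed in any of these limma tests, and at an unadjusted p under 0.05 it was 1 for diet, 1 for rhythm in EpSA, 2 in chow and 1 for the difference, with the same shares of all genes (19.2%, 8.63%, 10.2% and 4.38%). Thra held the counts for diet and for rhythm in EpSA, Dio1 that for the difference, and both genes those in chow. Dio1, the deiodinase that activates thyroxine, was at 7.86 ± 1.24 FPKM in EpSA and 7.88 ± 1.18 in chow. Its fitted peaks were at ZT 14.1 ± 1.85 h in EpSA and ZT 2.43 ± 1.19 h in chow. The amplitudes were small, at 0.16 in EpSA and 0.21 in chow, with limma adjusted p for rhythm of 0.625 and 0.410.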
